A study of Mus musculus with 6 samples.

Results

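The genes described here are the proteasome and immunoproteasome subunits of the mouse, taken as every locus of the deposited tables with a gene symbol made of Psm, 1 letter from a to g and a number. The rule found 48 symbols at 49 loci, Psmd5 having 2 loci, among 53323 loci in all. Of these symbols 5 are named as inducible (Psmb8, Psmb9, Psmb10, Psme1 and Psme2) and 43 are constitutive subunits, activators, assembly factors or tissue forms. Of the 49 loci, 47 passed the filter on low counts and were tested. Psma8, the testis form of an alpha subunit, was listed at 0 fragments in all 6 libraries. Psmb11, the catalytic subunit of the thymus proteasome, had 0.789 to 2.51 estimated fragments in a library, and neither was tested.

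The proteasome is the main protease of the cytosol and nucleus and degrades proteins tagged with ubiquitin. Its 20S core is a stack of rings of alpha and beta subunits, in which Psmb5, Psmb6 and Psmb7 carry the proteolytic sites, and the 19S cap of Psmc ATPases and Psmd subunits binds, unfolds and feeds in the substrate. Interferon gamma is known to induce Psmb8, Psmb9 and Psmb10, which take the places of Psmb5, Psmb6 and Psmb7 in newly built cores and favour peptides that MHC class I molecules can present, together with the PA28 activator made of Psme1 and Psme2.

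RNA was sequenced from mouse embryonic fibroblasts, connective-tissue cells grown from embryos, in 6 libraries. There were 3 libraries labelled WT and 3 labelled Fbxw7 KO, and both genotypes were grown in DMEM with 15% FBS and 1% NEAA. Fbxw7 is the substrate-binding subunit of an SCF ubiquitin ligase, whose tagged targets the proteasome degrades. The comparison asks how transcript levels differ when Fbxw7 is knocked out. The labels give neither the deleted exons, the strain, the embryonic age, nor whether the 3 libraries of each genotype derive from separate embryos or cultures, so p-values measure only how these samples spread, and that spread may be technical.

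Libraries held 55720129 to 64198455 estimated fragments each. Fbxw7 was at 29.5, 28.4 and 30.1 CPM (a count relative to the total of its library, adjusted by TMM factors) in WT and at 27.6, 27.4 and 24.1 CPM in knockout libraries, a log2 fold change of -0.16 ± 0.10 (SE) with an edgeR adjusted p of 0.332. That value sums the whole gene and does not check the labels, because the deleted exons were not given. All 9 fibroblast markers stood above 100 CPM in every library, and Cd3e and Adgre1 of the 10 leukocyte markers were at 0 in every library. Replicate 3 of both genotypes stood apart by the squared difference between libraries, divided by its sampling variance. Against the other libraries of its genotype, the median of this value was 26.9 to 42.5 times that of sampling noise alone. It was 7.47 times between WT replicates 1 and 2 and 6.56 times between knockout replicates 1 and 2.

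Most proteasome genes had means in the knockout close to those in WT. The genes that fell were Psmb10, a catalytic subunit of the immunoproteasome, and Psme4, an activator, and the other inducible catalytic subunits, Psmb8 and Psmb9, lay below WT in every knockout library without passing the test. By the edgeR quasi-likelihood test, with p-values adjusted by Benjamini-Hochberg over all 16787 genes tested and a threshold of 0.05, 2 of the 47 loci fell (Psme4 and Psmb10) and 0 rose. Over all genes tested the same rule called 16.1%, with 8.08% lower and 8.03% higher in the knockout. At an unadjusted p under 0.05 the loci passing numbered 6, against 31.6% of all genes, and the Wald test of DESeq2 called 4 lower (Psmb8, Psmb9, Psmb10 and Psme4; 11.3% of all genes were lower by that test) and 1 higher (Psmg4; 10.4%). With replicate 3 of both genotypes left out, edgeR called the same 4 genes lower and 5 higher (Psmb4, Psmc4, Psmd4, Psmd11 and Psmg4), where 20.6% of all genes were lower and 20.7% higher. The 3 knockout libraries lay entirely below the 3 WT libraries for 6 loci (Psmb8, Psmb9, Psmb10, Psme4, Psmc5 and Psmd5) and entirely above them for 2 (Psmg4 and Psmd10), whereas over all genes 18.4% were separated downward and 19.2% upward. A log2 fold change within ±0.25 was found for 40 of the 47 loci (85.1%) and for 48.7% of all genes. These shares were not matched for expression level, so they do not show that proteasome genes are unusually stable. The median log2 fold change was -0.04 over the 47 loci and 0.01 over all genes.

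**Figure D1:**
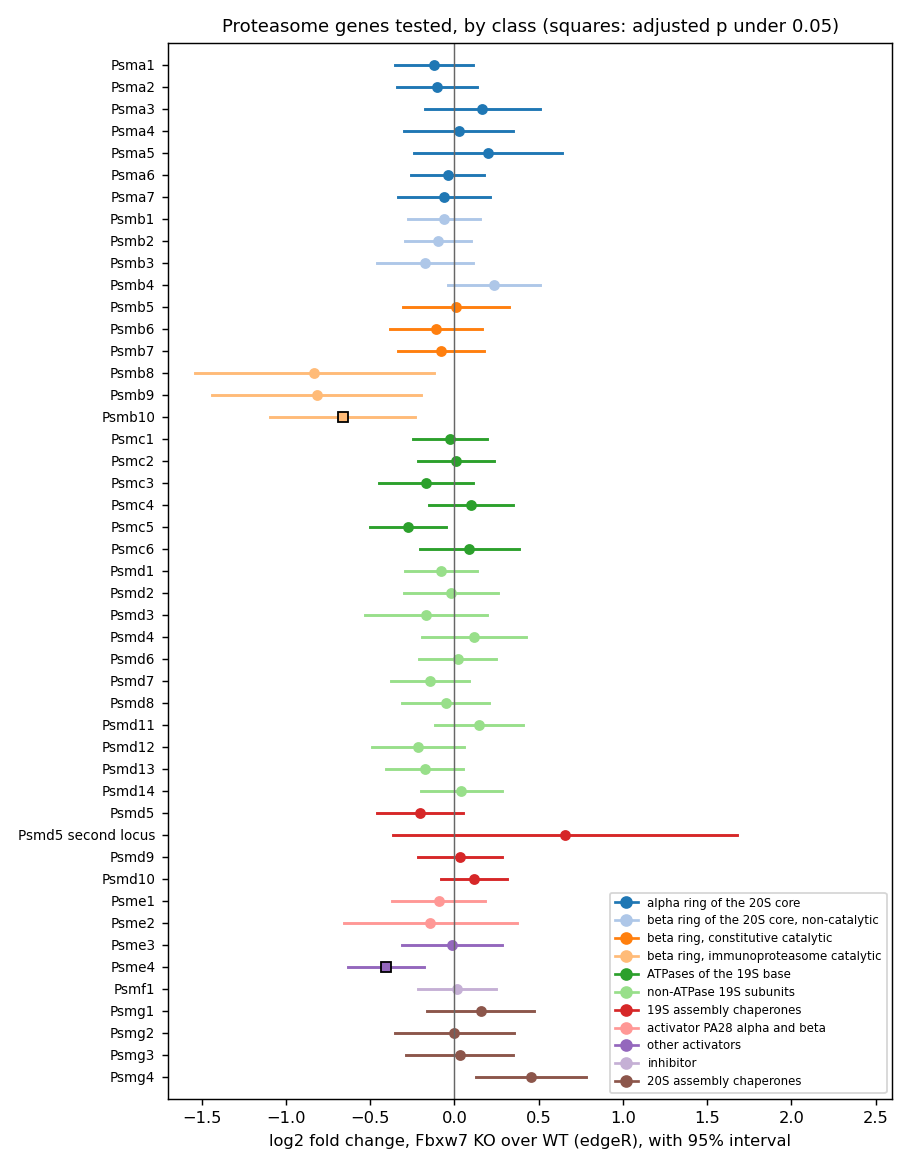
Log2 fold change (horizontal, knockout over WT, edgeR) of the 47 tested proteasome loci, coloured by class, with bars for the 95% confidence interval and squares for the loci that passed the adjusted threshold. Most points lie within 0.25 of 0, Psmb8, Psmb9 and Psmb10 lie between -0.83 and -0.66, and the squares are Psmb10 and Psme4.

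Among the inducible genes the estimates of the catalytic subunits lay further below 0 than those of the activator, a difference that was not tested. All 5 had a log2 fold change below 0, with a median of -0.66, and 1 of the 5 (Psmb10) passed the adjusted threshold. The 42 tested constitutive loci had a median of -0.02, with 22 below 0 and 20 above, and 1 of them (Psme4) passed. Within the 5, Psmb8, Psmb9 and Psmb10 ran from -0.83 to -0.66, whereas Psme1 and Psme2 stood at -0.09 and -0.14. The 95% intervals of Psme1 (-0.37 to 0.18) and Psme2 (-0.65 to 0.37) overlap those of Psmb8 (-1.54 to -0.12), Psmb9 (-1.44 to -0.20) and Psmb10 (-1.09 to -0.24).

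The annotated promoter windows of the 3 inducible catalytic genes are shown because these genes lay below WT in every knockout library. The sequences run from 250 bases before to 50 bases after the start site in RefSeq on GRCm38.p6, the assembly also called mm10, and are written 5′ to 3′ on the strand of the gene. Capitals in Psmb8 mark a match to the interferon gamma-activated site TTCNNNGAA, which begins at position -97 from the start site. In Psmb9 they mark the letters CCAAT, read on the opposite strand, at position -8. The window of Psmb10 held none of the motifs searched. The windows of Psmb8 and Psmb9 lie inside the gene spans that GENCODE gives, their RefSeq start sites being 474 and 434 bases downstream of the GENCODE gene starts. The match in Psmb8 (chromosome 17, 34198098 to 34198106) lies in an exon of 1 GENCODE transcript of the gene and in an intron of 1 other. That in Psmb9 (chromosome 17, 34187334 to 34187338) lies in an exon of 4 GENCODE transcripts of its gene and in an intron of 0.
Psmb8 (chr17:34197945-34198244, plus strand): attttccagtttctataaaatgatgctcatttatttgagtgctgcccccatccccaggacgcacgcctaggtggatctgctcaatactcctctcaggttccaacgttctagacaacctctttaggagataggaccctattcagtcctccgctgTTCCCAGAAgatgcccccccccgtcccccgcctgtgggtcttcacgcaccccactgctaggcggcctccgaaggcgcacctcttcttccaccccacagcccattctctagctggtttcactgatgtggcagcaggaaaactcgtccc
Psmb9 (chr17:34187281-34187580, minus strand): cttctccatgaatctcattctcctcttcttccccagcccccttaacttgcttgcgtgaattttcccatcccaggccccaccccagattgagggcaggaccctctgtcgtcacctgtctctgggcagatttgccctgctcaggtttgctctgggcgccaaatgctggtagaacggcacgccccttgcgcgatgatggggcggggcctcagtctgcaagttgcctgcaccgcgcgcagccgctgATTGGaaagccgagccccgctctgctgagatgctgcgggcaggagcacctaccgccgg
Psmb10 (chr8:105938343-105938642, minus strand): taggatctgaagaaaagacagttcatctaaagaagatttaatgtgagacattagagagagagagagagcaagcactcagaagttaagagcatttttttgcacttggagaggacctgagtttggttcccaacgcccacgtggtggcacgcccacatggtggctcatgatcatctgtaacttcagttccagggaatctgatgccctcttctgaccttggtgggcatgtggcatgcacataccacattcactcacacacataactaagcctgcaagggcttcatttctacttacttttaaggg

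The motifs were searched on both strands, with overlapping matches allowed, in 43 windows of 40 of the 48 symbols and in 32851 windows of all genes. TTCNNNGAA was found in 3 member windows (6.98%; Psmb8, Psmd2 and Psmg1) and in 8.3% of all windows. The interferon-stimulated response element GAAANNGAAA was found in 5 member windows (11.6%; Psmb3, Psmd4, Psmd9, Psme1 and Psmg4) and in 3.44% of all windows. CCAAT was found in 32.6% of the member windows and 37.4% of all windows. A match of letters is a description of the window and not a binding site. The windows of Psmb9 and Tap1, the latter a subunit of the transporter that carries peptides to MHC class I, shared 275 of 300 bases. Their start sites, 34187330 and 34187556 on chromosome 17, lie 226 bases apart and point in opposite directions.

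Psmb8 (chromosome 17, 34197721 to 34201454, plus strand) encodes the inducible counterpart of Psmb5. It measured 58.3, 55.1 and 53.3 CPM in WT libraries and 35.5, 42.3 and 15.9 CPM in knockout libraries, so every knockout library was below every WT library and knockout replicate 3 was far below the other two. The means were 55.6 ± 2.52 and 31.3 ± 13.7 CPM (SD, n = 3 each). The log2 fold change was -0.83 ± 0.31 (SE; 95% interval -1.54 to -0.12), and the edgeR adjusted p of 0.108 missed the threshold. Without knockout replicate 3 the difference was smaller, -0.52 ± 0.11, and passed with an edgeR adjusted p of 0.0167. The DESeq2 Wald test gave an adjusted p of 0.0301.

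Psmb9 (chromosome 17, 34181987 to 34187764, minus strand), the inducible counterpart of Psmb6, was the scarcest of the 3. It stood at 14.0, 12.9 and 8.76 CPM in WT libraries and at 7.82, 7.99 and 4.42 CPM in knockout libraries. The groups did not overlap, replicate 3 was the lowest of both genotypes, and WT replicate 3 lay closer to knockout replicates 1 and 2 than to the other WT libraries. Psmb9 had a log2 fold change of -0.82 ± 0.27 (95% interval -1.44 to -0.20) with an edgeR adjusted p of 0.0778. It passed at -0.997 with an edgeR adjusted p of 0.0367 when WT replicate 3 was left out, and the DESeq2 Wald test gave an adjusted p of 0.0171. The annotated Psmb9 reaches past the start site of Tap1 on the opposite strand, and use of the strand in counting is not given in the sources used here, so reads from that stretch cannot be told apart.

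Psmb10 (chromosome 8, 105935735 to 105938444, minus strand), the inducible counterpart of Psmb7, fell. Its WT libraries were at 31.9, 28.1 and 29.2 CPM and its knockout libraries at 19.4, 23.2 and 13.7 CPM, with no overlap. The knockout mean of 18.8 ± 4.75 CPM was 63.1% of the WT mean of 29.7 ± 1.98 CPM (SD, n = 3 each). The log2 fold change was -0.66 ± 0.18 (95% interval -1.09 to -0.24) with an edgeR adjusted p of 0.0476, close to the threshold. The call was lost when any one of the 3 WT libraries or knockout replicate 1 was left out (edgeR adjusted p = 0.0677 to 0.149). It was lost too with upper-quartile factors (edgeR adjusted p = 0.0572) and with library size alone (edgeR adjusted p = 0.0619). The limma fits on FPKM did not call Psmb10 either (limma adjusted p = 0.0626 to 0.131).

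The constitutive catalytic subunits, which occupy the same positions of the ring, had overlapping groups and none passed the edgeR test. Psmb5 (chromosome 14, 54614119 to 54618022, minus strand), which carries the chymotrypsin-like site, was at 40.0, 35.4 and 45.6 CPM in WT libraries and at 42.9, 44.4 and 34.5 CPM in knockout libraries, a log2 fold change of 0.01 ± 0.14 (95% interval -0.31 to 0.32; edgeR adjusted p = 0.974). Psmb6 (chromosome 11, 70525367 to 70527858, plus strand), which carries the caspase-like site, was at 87.3, 79.8 and 91.8 CPM in WT libraries and at 83.5, 88.1 and 68.2 CPM in knockout libraries. Its log2 fold change was -0.11 ± 0.12 (95% interval -0.38 to 0.16; edgeR adjusted p = 0.57). Psmb7 (chromosome 2, 38588036 to 38644087, minus strand), which carries the trypsin-like site, was at 118, 95.7 and 123 CPM in WT libraries and between 105.7 and 106.9 CPM in knockout libraries. Its log2 fold change was -0.08 ± 0.11 (95% interval -0.34 to 0.17; edgeR adjusted p = 0.662), and the WT libraries spread around the nearly equal knockout libraries. Their intervals overlap those of Psmb8, Psmb9 and Psmb10.

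The promoter windows of Psmb5 and Psmb6 are shown beside those of their inducible counterparts, with the same limits, source and build. Capitals mark a match to TGACNNNGC, the core of the antioxidant response element that NRF1 and NRF2 bind, at position -47 in Psmb5 and at position -9 in Psmb6. This motif was found in 6 member windows (14.0%; Psmb5, Psmb6, Psmc6, Psmd12, Psmd9 and Psme4) and in 12.4% of all windows.
Psmb5 (chr14:54617946-54618245, minus strand): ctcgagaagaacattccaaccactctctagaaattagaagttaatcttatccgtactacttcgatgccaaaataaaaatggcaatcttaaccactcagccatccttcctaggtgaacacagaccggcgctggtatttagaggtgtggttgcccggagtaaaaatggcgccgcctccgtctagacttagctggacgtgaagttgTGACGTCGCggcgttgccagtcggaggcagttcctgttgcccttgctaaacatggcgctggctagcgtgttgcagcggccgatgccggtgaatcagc
Psmb6 (chr11:70525107-70525406, plus strand): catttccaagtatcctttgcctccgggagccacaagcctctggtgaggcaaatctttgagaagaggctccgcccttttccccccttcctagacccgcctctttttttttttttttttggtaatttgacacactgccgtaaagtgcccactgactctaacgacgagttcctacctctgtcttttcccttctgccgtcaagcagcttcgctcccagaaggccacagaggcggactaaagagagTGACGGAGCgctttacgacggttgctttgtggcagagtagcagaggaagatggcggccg

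**Figure D2:**
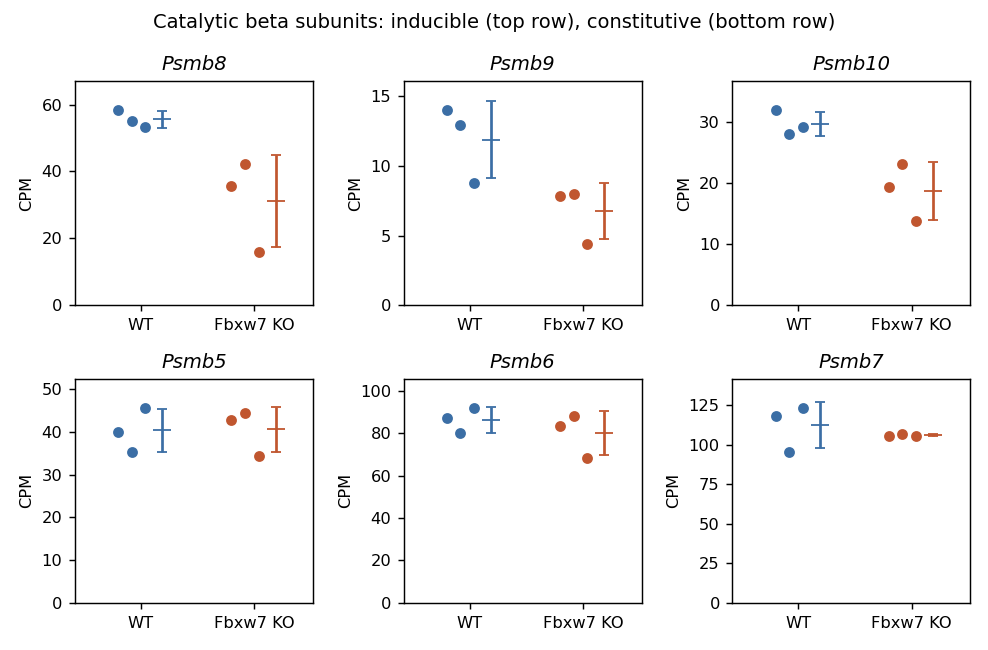
CPM (vertical) of the inducible catalytic subunits (top) and their constitutive counterparts (bottom) in each library, with the mean and SD of 3 libraries per genotype beside the points. Every knockout library lies below every WT library for Psmb8, Psmb9 and Psmb10, and the genotypes overlap for Psmb5, Psmb6 and Psmb7.

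Levels of different genes were compared in FPKM, the deposited unit that scales fragments to transcript length and library total. In WT, Psmb8 was about as abundant as its counterpart: its FPKM was 115%, 119.9% and 91.4% of that of Psmb5, and in the knockout 64.9%, 72.1% and 34.9%. The level of Psmb5 in this ratio is uncertain and its uncertainty differs by genotype, since near-identical copies held 27.1% to 27.6% of the fragments of gene and copies in WT and 36.9% to 41.7% in the knockout. Psmb10 had 33.3 ± 3.39% of the FPKM of Psmb7 in WT and 23.2 ± 5.36% in the knockout (SD, n = 3 each). Psmb9 had 6.61 ± 1.81% of the FPKM of Psmb6 in WT and 4.06 ± 0.784% in the knockout. The log2 ratio of inducible to constitutive partner differed between genotypes by -0.98 for Psmb8 and Psmb5 and by -0.55 for Psmb10 and Psmb7, both with non-overlapping groups and a two-sided exact permutation p of 0.1, the smallest that 3 against 3 libraries allow (0.15 after Benjamini-Hochberg adjustment over the 3 pairs). For Psmb9 and Psmb6 the difference was -0.68 with an exact permutation p of 0.2 (0.2 adjusted), since 1 WT ratio lay within the range of the knockout. Summed over the ring positions, the inducible forms made up 26.8%, 27.1% and 23.0% of catalytic-subunit FPKM in WT and 19.1%, 20.3% and 12.6% in the knockout. The groups did not overlap, and the means were 25.6 ± 2.27% and 17.3 ± 4.13% (SD, n = 3 each). In such bulk samples fewer cells carrying a transcript and less transcript per cell cannot be told apart.

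The PA28 genes sit close together on chromosome 14 and are known to be induced with the immunoproteasome. Psme1 (55578123 to 55581529, plus strand) was at 56.7, 53.7 and 53.4 CPM in WT libraries and at 51.4, 58.3 and 43.6 CPM in knockout libraries. The groups overlapped, and the log2 fold change of -0.09 ± 0.12 (95% interval -0.37 to 0.18) had an edgeR adjusted p of 0.636. Psme2 (55587441 to 55591113, minus strand) was at 2.25, 1.91 and 1.95 CPM in WT libraries and at 2.23, 1.85 and 1.45 CPM in knockout libraries, again with overlap (log2 fold change -0.14 ± 0.22, 95% interval -0.65 to 0.37, edgeR adjusted p = 0.705). The level of Psme2 is uncertain because a near-identical gene could share its reads, and how the reads were divided was not tested. The transcript of Psme2b on chromosome 11 matched the coding sequence of Psme2 at 99.3% identity in the best aligned segment. The locus of Psme2b, which also carried the name 9930111J21Rik1, held a mean of 5996 estimated fragments per library against 116 at Psme2. The Psme2b locus stood at 105 ± 7.54 CPM in WT libraries and 96.6 ± 3.99 CPM in knockout libraries (SD, n = 3 each; edgeR adjusted p = 0.434), so neither of the loci passed the test.

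Psme4 was the constitutive gene that fell. It encodes PA200, an activator that caps the 20S core and opens it without ubiquitin or ATP, and lies on chromosome 11 from 30771726 to 30880361 on the plus strand. Its WT libraries were at 143, 142 and 139 CPM and its knockout libraries at 114, 94.9 and 112 CPM, with a wide gap between the groups. The knockout mean was 107 ± 10.3 CPM, 75.4% of the WT mean of 142 ± 2.25 CPM (SD, n = 3 each). The log2 fold change was -0.41 ± 0.10 (95% interval -0.63 to -0.18) with an edgeR adjusted p of 0.0281. The call was lost without WT replicate 1 or 2 or knockout replicate 1 or 2 (edgeR adjusted p = 0.0732 to 0.102). With scaling by library size alone it was lost too (edgeR adjusted p = 0.0724), a scaling under which 65.7% of the genes called over the whole table were higher in the knockout, against 49.8% with TMM. The limma fit on log2(FPKM + 1) without its filter did not call Psme4 either (limma adjusted p = 0.0762). Psme3, which encodes the PA28 gamma ring of the nucleus, had overlapping groups at 116 ± 12.7 CPM in WT libraries and 115 ± 15.1 CPM in knockout libraries (SD, n = 3 each).

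The promoter window of Psme4 is shown because the gene passed the test and its window held the same NRF1 and NRF2 motif, here on the opposite strand at position -7, as the windows of Psmb5 and Psmb6, which did not pass. The match in Psme4 (30771768 to 30771776) spans the RefSeq start site at 30771775 and lies in an exon of 1 GENCODE transcript. Those in Psmb5 and Psmb6 lie upstream of the GENCODE gene starts, outside any exon or intron.
Psme4 (chr11:30771525-30771824, plus strand): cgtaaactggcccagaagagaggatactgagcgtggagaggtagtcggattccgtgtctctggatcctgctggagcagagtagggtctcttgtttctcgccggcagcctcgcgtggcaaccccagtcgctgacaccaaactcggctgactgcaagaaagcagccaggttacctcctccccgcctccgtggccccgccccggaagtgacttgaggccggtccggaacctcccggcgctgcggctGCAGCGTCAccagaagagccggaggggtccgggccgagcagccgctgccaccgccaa

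No constitutive subunit of the core or cap passed the test, and the groups overlapped for all of them except Psmc5. The 14 tested constitutive subunits of the 20S core build the rings around the proteolytic chamber. Their log2 fold changes ran from -0.18 to 0.23, and no 95% interval went below -0.46 or above 0.64. None of the 14 passed the edgeR test, none was under an unadjusted p of 0.05, and the DESeq2 Wald test called none of them, while Psmb4 passed with replicate 3 of both genotypes left out. Psmb4 had the highest of these fold changes at 0.23 ± 0.12 (edgeR adjusted p = 0.222), with means of 133 ± 11.6 CPM in WT libraries and 156 ± 18.6 CPM in knockout libraries (SD, n = 3 each). Psma5 followed at 0.20 ± 0.19 (edgeR adjusted p = 0.518).

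For the 17 subunits of the 19S cap the log2 fold changes ran from -0.27 to 0.15, with 95% intervals between -0.53 and 0.42, and 0 passed the edgeR test or the DESeq2 Wald test. Psmc5, an ATPase of the base, gave the value farthest from 0. It was at 127, 118 and 141 CPM in WT libraries and at 104, 112 and 104 CPM in knockout libraries. The groups did not overlap, and the log2 fold change of -0.27 ± 0.10 had an edgeR adjusted p of 0.0979 and was the only one of the 17 under an unadjusted p of 0.05.

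Assembly factors help to build both the core and the cap. Psmg4, a chaperone of the alpha ring on chromosome 13 (34162964 to 34178173, plus strand), was at 7.45, 6.75 and 6.82 CPM in WT libraries and at 10.1, 10.4 and 8.29 CPM in knockout libraries. All knockout libraries were above all WT libraries, and the log2 fold change of 0.46 ± 0.14 had an edgeR adjusted p of 0.0651. It passed without knockout replicate 3 (edgeR adjusted p = 0.0242) and in the DESeq2 Wald test (adjusted p = 0.029). The other chaperones of the 20S core, Psmg1, Psmg2 and Psmg3, had overlapping groups. Psmd10, a chaperone of the cap also known as gankyrin, was at 48.9 ± 2.49 CPM in WT libraries and 53.0 ± 1.21 CPM in knockout libraries without overlap, and Psmd5, another such chaperone, at 90.1 ± 12.2 and 78.3 ± 0.927 CPM (SD, n = 3 each). The edgeR adjusted p-values were above the threshold for both. The second locus of Psmd5 had the highest fold change of all 47, 0.66 ± 0.44, at 0.204 ± 0.0397 CPM in WT libraries and 0.324 ± 0.165 CPM in knockout libraries (edgeR adjusted p = 0.355). It moved to 0.16 without knockout replicate 3. Psmf1, the inhibitor PI31, was at 38.8 ± 3.30 and 39.2 ± 2.03 CPM.

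Levels ranged widely between subunits. The highest mean FPKM in WT belonged to Psmd8 of the cap (199 ± 27.4), followed among the class leaders by Psma6 of the alpha ring (176 ± 15.0) and the ATPase Psmc3 (170 ± 12.4). The same genes stood at 185 ± 8.63, 164 ± 3.52 and 163 ± 15.6 FPKM in the knockout (SD, n = 3 each), and in WT these neighbours did not differ beyond their spread. Psmb6 led the constitutive catalytic subunits at 147 ± 10.5 FPKM in WT and Psmb5 was the lowest of them at 57.6 ± 7.74. Psmb8 stood at 61.9 ± 2.03 FPKM in WT, level with Psmb5 within its spread, and at 32.9 ± 15.1 in the knockout. Low in their classes in WT were Psmc6 of the ATPases (64.9 ± 6.69), Psmd11 of the cap (25.6 ± 4.11), Psmb3 of the beta ring (16.5 ± 1.28), Psmg3 of the chaperones (17.2 ± 2.16) and Psmb9 (9.57 ± 2.17). Libraries also differed in common: WT replicate 2 was the lowest WT library for 39 of the 47 loci in CPM, and knockout replicate 3 the lowest knockout library for 30.

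**Figure D3:**
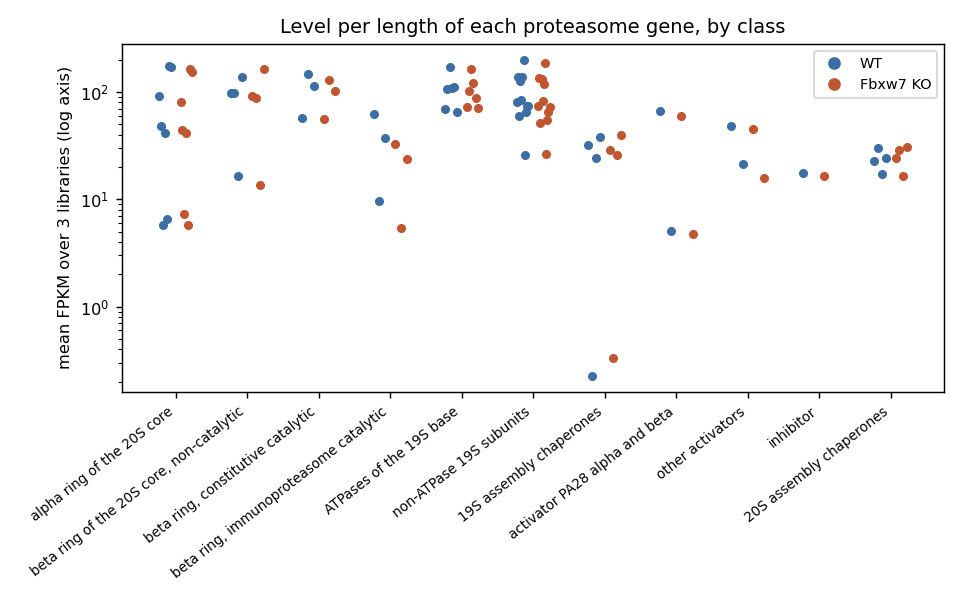
Mean FPKM over 3 libraries (vertical, log axis) of each proteasome locus by class (horizontal), with blue points for WT and orange points for the knockout; Psma8 and Psmb11, at or below 0.1 FPKM, are left out. Most core and cap subunits lie well above the second locus of Psmd5 (0.226 FPKM in WT), Psmd8 of the cap is the top WT point at 199 FPKM, and Psmb8 lies at 61.9 FPKM in WT and 32.9 in the knockout.

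Several proteasome genes have near-identical copies elsewhere in the genome, and the deposited estimates divided the reads between them. Copies with at least 90% identity over at least 50% of the coding sequence were found for 16 members, and none met these limits for Psmb8, Psmb9, Psmb10 or Psme4. For 14 of the 16 the fragments at copy loci could be summed. The other members are Psmb7 and Psmg3, whose copies lay in a locus with a further name or in the locus of the gene itself. For Psme2 and Psmd11 only 1 of 2 copy loci was summed, because the other carried a further name. Left out were Psme2b, with a mean of 5996 estimated fragments, and for Psmd11 the locus of A730017L22Rik, with 13998. The shares of Psme2 and Psmd11 therefore do not cover all their copies. For Psma3 the copies held 88.8% of the fragments of gene and copies together. Most of these were at Gm13835 on chromosome 6, a processed pseudogene that aligned to 86.5% of the coding sequence, with 100% identity in the best aligned segment. For Psma5 the share was 87.5%, for Psmb3 40.5%, for Psmd11 35.9%, for Psmb5 33.3%, for Psma4 33.1%, for Psmd2 31.3% and for Psmc1 27.4%, so the levels of these genes are uncertain. The library ranges of this share overlapped between genotypes for every one of these 14 genes except Psmb5.

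For Psmb5 the copies held 27.1% to 27.6% of the fragments in WT and 36.9% to 41.7% in the knockout. The main copy was Gm3375, a processed pseudogene on chromosome 7 with 98.9% identity to the coding sequence in the best aligned segment. It was at 15.2, 13.2 and 17.0 CPM in WT libraries and at 25.1, 26.6 and 24.7 CPM in knockout libraries. Gm3375 thus rose without overlap of the groups, by a log2 fold change of 0.75 ± 0.12 (edgeR adjusted p = 0.00682). With the fragments of its copies added, Psmb5 had a log2 fold change of 0.25 ± 0.12 and an edgeR adjusted p of 0.203, and Psma5 0.36 ± 0.12 and 0.0807. Adding the copies left Psme4 and Psmb10 as the genes called. Whether reads of Psmb5 and of Gm3375 were exchanged was not tested.

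**Figure D4:**
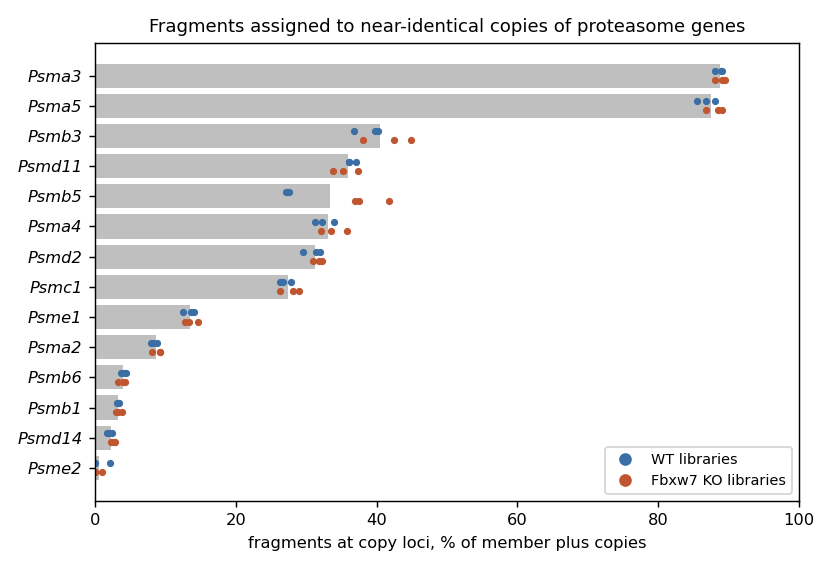
Share of fragments, in percent of gene plus copies, that the deposited estimates placed at near-identical copies of 14 proteasome genes, with a bar for all libraries summed and a point for each library. Copy loci that carried a further name were left out, among them Psme2b for Psme2 and the locus of A730017L22Rik for Psmd11. The knockout libraries of Psmb5 (36.9% to 41.7%) lie apart from its WT libraries (27.1% to 27.6%).

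Lists of other genes that work with the proteasome are given beside the shares of all genes called. By edgeR these shares were 8.03% higher and 8.08% lower, and 31.6% had an unadjusted p under 0.05. By the DESeq2 Wald test they were 10.4% higher and 11.3% lower. Among 17 tested partners without a Psm symbol, with a median log2 fold change of 0.11, 1 rose and 1 fell. Fbxo7, an F-box protein that binds the proteasome inhibitor PI31, fell from 21.7 ± 0.522 to 13.9 ± 0.523 CPM (log2 fold change -0.64 ± 0.10, edgeR adjusted p = 0.00575). Leaving out WT replicate 3 gave 2 lower genes in this list, leaving out knockout replicate 3 gave 2 higher, and leaving out replicate 1 or 2 of either genotype gave 0 higher. Over all genes, 1568 of 17229 were lower without WT replicate 3 and 1555 of 17175 higher without knockout replicate 3. Without replicate 1 or 2 of either genotype, 605 of 17225 to 714 of 17202 were higher. Among the 10 genes of the NRF1 route, which raises proteasome genes when proteolysis is limiting, 1 rose and 0 fell by edgeR, with a median of -0.10, while 2 were higher and 1 lower at an unadjusted p under 0.05, and 1 was higher and 1 lower by the DESeq2 Wald test. Ddi2, the protease that cuts NRF1 into its active form and whose locus also carried the name Rsc1a1, rose from 81.6 ± 1.38 to 103 ± 6.56 CPM (log2 fold change 0.34 ± 0.09, edgeR adjusted p = 0.034), a call lost when any library except knockout replicate 3 was left out. Of the 6 genes of ubiquitin and its activating enzymes 0 passed the edgeR test and 0 the DESeq2 Wald test, with a median of 0.05. At an unadjusted p under 0.05 there was 1, lower in the knockout, and 1 was called lower by edgeR without knockout replicate 3. Over all genes 1727 of 17175 were lower without that library. The most abundant of them was Uba1, the main ubiquitin-activating enzyme, at 553 ± 51.0 CPM in WT libraries and 585 ± 58.6 in the knockout (SD, n = 3 each).

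Of 11 genes of the MHC class I peptide route, which carries peptides made by the proteasome to the cell surface, 4 fell and 0 rose by edgeR, with a median log2 fold change of -0.48. At an unadjusted p under 0.05, and by the DESeq2 Wald test, 7 were lower and 0 higher. Over all genes tested, edgeR called 8.08% lower and 8.03% higher, and 31.6% had an unadjusted p under 0.05. The DESeq2 Wald test called 11.3% of all genes lower and 10.4% higher. B2m, the light chain of MHC class I, was at 2789, 2455 and 2289 CPM in WT libraries and at 1352, 1331 and 1402 CPM in knockout libraries, and fell by 0.88 on the log2 scale (SE 0.12, edgeR adjusted p = 0.00293). The heavy chains fell as well. H2-K1 went from 460.3 ± 57.2 to 248 ± 69.1 CPM (log2 fold change -0.89 ± 0.21, edgeR adjusted p = 0.028) and H2-D1 from 642 ± 81.5 to 382 ± 85.1 CPM (-0.75 ± 0.18, edgeR adjusted p = 0.0299). As members of a family of near-identical genes both are uncertain. Erap1, which trims peptides in the endoplasmic reticulum, fell from 65.8 ± 7.10 to 46.6 ± 6.02 CPM (-0.50 ± 0.13, edgeR adjusted p = 0.0367). Without WT replicate 1, WT replicate 2 or knockout replicate 1 the count of lower genes in this list was 1 in each case (B2m). Over all genes those fits called 670 of 17220, 647 of 17204 and 564 of 17225 lower. The Erap1 call was also lost without knockout replicate 2. Tap1, the neighbour of Psmb9, was at 94.7, 102 and 86.9 CPM in WT libraries and at 79.1, 84.9 and 50.4 CPM in knockout libraries. Its groups did not overlap, knockout replicate 3 was the lowest as for Psmb8, and the log2 fold change of -0.40 ± 0.19 had an edgeR adjusted p of 0.185. Tap2, which lies in the same cluster as Psmb8 and Psmb9, was at 72.9 ± 8.97 and 59.9 ± 14.1 CPM with overlapping groups (edgeR adjusted p = 0.336). Tap1 and Tap2 were chosen for their position after their values were seen.

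Among 19 tested genes of interferon signalling and response, with a median log2 fold change of 0.16, 4 fell and 2 rose by edgeR. Over all genes tested, 8.08% were called lower and 8.03% higher. Nlrc5, the transactivator of MHC class I genes, was at 53.4, 59.6 and 67.1 CPM in WT libraries and at 28.3, 27.3 and 29.8 CPM in knockout libraries (log2 fold change -1.08 ± 0.11, edgeR adjusted p = 0.00103). Both chains of the interferon gamma receptor fell, Ifngr1 from 110.5 ± 3.77 to 78.7 ± 3.38 CPM (-0.49 ± 0.08, edgeR adjusted p = 0.00792) and Ifngr2 from 152 ± 3.85 to 113 ± 3.15 CPM (-0.43 ± 0.08, edgeR adjusted p = 0.0119). The Ifngr1 call was lost without knockout replicate 1 (edgeR adjusted p = 0.0535) and the Ifngr2 call without it or WT replicate 1, so that 2 lower genes remained in the list without knockout replicate 1. Over all genes 564 of 17225 were lower without that library. Oas3, an antiviral sensor of RNA, fell from 49.8 ± 8.94 to 1.81 ± 0.421 CPM (edgeR adjusted p = 3.23e-05). The kinases that sit on these receptors rose. Jak1 went from 249.9 ± 7.92 to 481 ± 132 CPM (log2 fold change 0.95 ± 0.20, edgeR adjusted p = 0.0173) and Jak2 from 73.3 ± 10.3 to 109 ± 5.15 CPM (0.57 ± 0.12, edgeR adjusted p = 0.0174). The Jak1 call was lost without any one of replicates 1 and 2 of either genotype, and the Jak2 call without replicate 1 of either, while 4 genes of the list were higher without knockout replicate 3. Over all genes 1555 of 17175 were higher without that library. Irf1, a factor that drives the inducible subunits, was at 46.3 ± 4.17 and 47.0 ± 10.1 CPM (edgeR adjusted p = 0.951). Jak1, Jak2 and Irf1 were chosen after their values were seen.

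**Figure D5:**
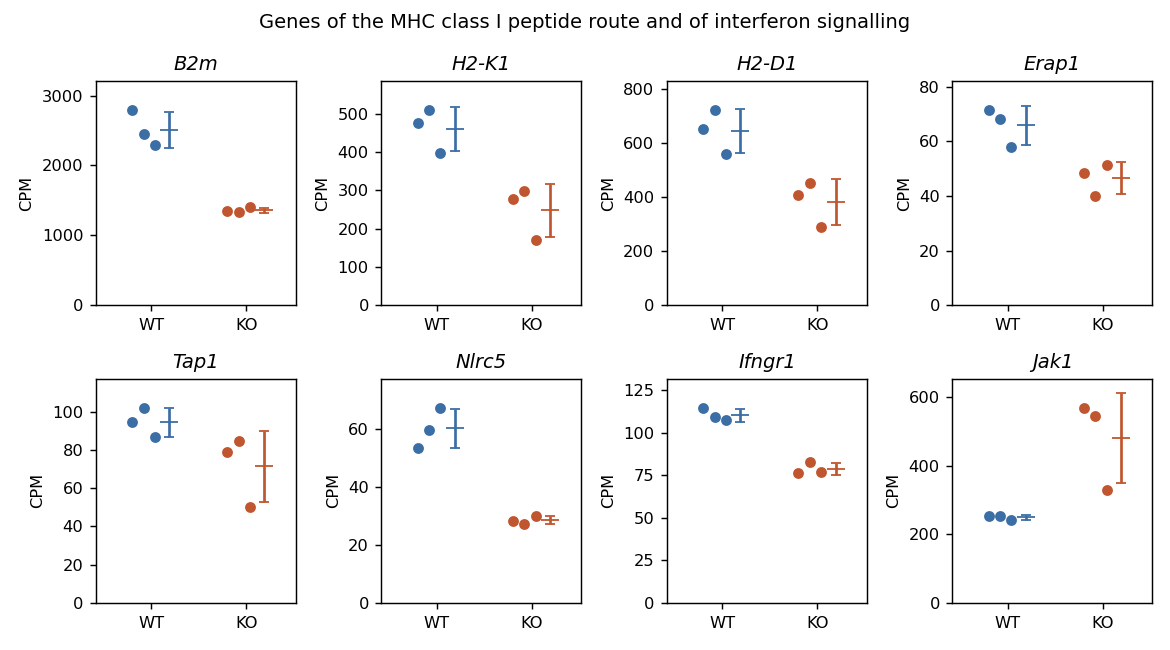
CPM in each library, with mean and SD of 3 libraries per genotype, of genes of the MHC class I peptide route (B2m, H2-K1, H2-D1, Erap1, Tap1) and of interferon signalling (Nlrc5, Ifngr1, Jak1). The knockout libraries lie below the WT libraries in every panel except that of Jak1, where they lie above.

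Immune cells carry high levels of the inducible subunits, so the levels of leukocyte markers are given beside them. The 10 leukocyte markers summed to 19.2 to 21.7 CPM in WT libraries and to 11.4 to 14.2 CPM in knockout libraries. Of these, 8 were below 1 CPM in every library and 4 were tested. Lyz2 fell from 17.7 ± 1.596 to 11.5 ± 1.13 CPM and Cd68 from 1.19 ± 0.358 to 0.448 ± 0.140 CPM (edgeR adjusted p = 0.0171 and 0.0299), and most of the sum was Lyz2. The other tested markers, Csf1r and Cd74, did not pass, at 0.585 ± 0.05003 and 0.613 ± 0.0550 CPM in WT libraries and 0.651 ± 0.331 and 0.652 ± 0.0749 CPM in knockout libraries. Ptprc, the defining marker of leukocytes, was at most 0.0336 CPM in a library, against 53.3 to 58.3 CPM of Psmb8 in WT. The 5 endothelial markers summed to 6.46 to 9.24 CPM in WT libraries and to 0.614 to 1.42 CPM in knockout libraries, and the 4 epithelial markers to at most 0.336 CPM in a library. The part of these markers in the differences of Psmb8, Psmb9 and Psmb10 was not tested.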

How the data were processed

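The submitters' processing notes name the build mm10 and the tools Cufflinks 2.2.1, TopHat2 2.1.1, deepTools and SAMtools 1.5. The annotation version and the use of strand are not given in the sources used here. Deposited by the authors were estimated counts (expected fragments per locus) and FPKM (fragments scaled by transcript length and library total), both in Cufflinks layout per the file headers. In each library 88.9% to 89.5% of values up to 1000 were whole multiples of 1 step (tolerance 0.05), so 1 factor had been applied per library; totals before it were 51152517 to 70625767. Estimated counts were rounded. Loci without a name (1317) and named loci whose estimation was skipped (9) were left out; no member was among them.

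Genotypes were compared with edgeR 4.0.16 (R 4.3.3; counts filtered by filterByExpr, TMM factors, robust quasi-likelihood F test, two-sided, genotype as the only term) over 16787 genes. CPM uses TMM factors, and SE was obtained from the log2 fold change and its F value. DESeq2 1.42.0 and limma 3.58.1 gave alternatives. The labels do not say whether replicate numbers pair the libraries. Deviations of same-numbered libraries correlated at 0.0237, 0.0979 and 0.0788, values too low to settle it, so the number was used only as an alternative. PCR duplicates had no molecular identifiers, so depth gives an upper bound of precision.

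Positions are those of GENCODE M21 (mm10), copies from blastn 2.17.0, and promoter windows from RefSeq. The members and lists were chosen with earlier results of these data known. The text names Psmb5 to Psmb10, Psme1 and Psme2, members past the threshold, the highest and lowest of each class, untested members, the 3 largest fold changes per direction, and up to 4 called genes per list (or the 2 most abundant); other genes were named after their values were seen. Results of genes that this rule would name in some lists are not reported here. Psmd1, Psmg3 and Psmb5 lay in loci that carry other names too. The tests were tried on simulated data.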

Additional observations from a re-analysis of the deposited data

How the results depend on the processing

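The edgeR count of proteasome loci called lower (2) became 1 with upper-quartile factors, 0 with library size alone, 4 with the DESeq2 Wald test, 1 with limma on log2(FPKM + 1), 1 on log2(FPKM + 0.1) and 0 without its filter. Leaving out 1 library gave 0 to 3. Over all genes, 1357 of 16787 were lower in the main edgeR fit, 1212 with upper-quartile factors and 1026 with library size alone. The DESeq2 Wald test gave 1896 of 16787, the filtered limma fits 974 and 1007 of 13176, and limma without its filter 655 of 27649. Without 1 library, 564 of 17225 (knockout replicate 1) to 1727 of 17175 (knockout replicate 3) were lower. The count called higher (0) became 1 with library size alone and 1 with the DESeq2 Wald test, both times Psmg4, and 0 to 1 when leaving out 1 library. Over all genes, 1348 of 16787 were higher in the main edgeR fit, 1968 with library size alone and 1743 with the DESeq2 Wald test. Without 1 library, 605 of 17225 (knockout replicate 1) to 1615 of 17229 (WT replicate 3) were higher. Leaving out replicate 3 of both genotypes, an alternative chosen after seeing the data like the unscaled counts and the added copies, gave 4 lower and 5 higher. Over all genes 20.6% were lower and 20.7% higher in that fit. No alternative reversed Psmb8 (-1.11 to -0.52), Psmb9 (-0.997 to -0.59), Psmb10 (-0.85 to -0.49) or Psme4 (-0.46 to -0.31). The inducible share of catalytic FPKM in WT, 25.6%, was 29.0% in CPM. The causes were not tested.

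With the replicate number as a block, 2 loci were lower (Psme4 and Psmb9; Psmb10 had an edgeR adjusted p of 0.0545), and 2356 genes were called in place of 2705. Each WT library correlated best with the knockout library of its number, but knockout replicate 1 correlated best with WT replicate 2 (0.076). Whether the numbers mark pairs of libraries cannot be told from these values.

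Reversals touched genes that had not passed. Psma5 turned to -0.095 and -0.101 in the limma fits and Psmb5 to -0.057 and -0.058. Psmb5 was at -0.0026 with DESeq2 factors and at -0.0026 in the Wald test, and between -0.079 and 0.11 when leaving out 1 library. Psmb6 was at 0.038 with replicate 3 of both genotypes left out, Psmb7 at 0.015 and Psme1 at 2.3e-05 with library size alone. When leaving out 1 library, Psme1 lay between -0.20 and 0.0034. The second locus of Psmd5, at 10.04 to 29.98 estimated fragments, is the tested member that depth limits most.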
